A study of Mus musculus with 15 samples.

Results

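The ATF factors Atf1, Atf2, Atf3, Atf4, Atf5, Atf6, Atf6b and Atf7, with Ddit3 (CHOP) and Ppp1r15a (GADD34), were examined in a murine PDAC line and its tumors. These 10 genes, the ATF family with 2 further genes of the stress response it serves, were chosen by name out of the 55291 genes of the deposited tables. All 10 passed the filter on low values, a mean of at least 10 normalized counts, in every comparison. The cells were HY19636, a single line made from a pancreatic tumor of a genetically engineered C57BL/6 mouse. The paper gives its p53 genotype as L/+, and Ptf1a drives the Cre. All 5 groups therefore share the genotype of this 1 line. In culture, 3 samples were treated with 25 µM DON, a Gln antagonist, for 24 h, 3 were kept without Gln for 24 h and 3 were untreated controls, all in DMEM with FBS. For the tumors, the same cells were implanted orthotopically into the pancreas of female B6J mice aged 8 to 10 weeks, whose own immune system was intact. Of 6 tumors, 3 came from mice given DRP-104, a pro-drug of DON, at 3 mg per kg, and 3 from mice given vehicle. Dosing was daily for 5 days with a break of 2 days, repeated for 2 cycles, and collection followed 21 days after implantation. The study describes the tumors as 3 chosen at random from each group. The sources used here do not say whether the 3 cultures of a group were grown separately, so p-values in cells measure only the spread between these samples, which may be technical.

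ATF factors are basic leucine zipper (bZIP) transcription factors that bind DNA as dimers. When amino acids are short or the endoplasmic reticulum (ER) is stressed, kinases phosphorylate the translation factor eIF2, overall translation falls, and Atf4 mRNA is translated more efficiently. ATF4 protein then activates genes of amino acid synthesis and transport, and further regulators, among them Ddit3, Atf3 and Ppp1r15a; this program is known as the integrated stress response. GADD34, the product of Ppp1r15a, brings a phosphatase to eIF2 and so closes the loop. ATF6 and its relative ATF6B sit in the ER membrane and become active after proteolysis, whereas ATF1, ATF2 and ATF7 are mainly controlled by phosphorylation. Several members are thus regulated after transcription, and mRNA is the only layer measured here.

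The promoters of the members were read from RefSeq (GRCm38.p6), which held 9 of the 10 genes, all but Atf6. Over the 250 bases before each gene's start, 4 motifs were searched on both strands. The cAMP response element TGACGTCA occurred in 1.55% of 32851 promoters, and among the members in Ppp1r15a. The core of the C/EBP-ATF response element, TTGCATCA, occurred in 0.791% of promoters, and among the members in Atf3. The ER stress response element (CCAAT and CCACG separated by 9 bases, 0.113% of promoters) and the ATF6 site TGACGTGG (0.563%) were not found in these windows of the members; the ATF6 site shares its first 6 bases with the cAMP response element. The windows of Ddit3 and Atf5 held none of the 4 motifs, and a link between motif and response was not tested. The 2 windows with a match are printed from 5′ to 3′ on the minus strand, with the match in capitals. That of Atf3 is chr1:191183334-191183583, with the match 110 to 103 bases before the start; the gene's start in the authors' table, 191183340, falls just inside this window. That of Ppp1r15a is chr7:45526269-45526518, with the match 12 to 5 bases before the start.
Atf3: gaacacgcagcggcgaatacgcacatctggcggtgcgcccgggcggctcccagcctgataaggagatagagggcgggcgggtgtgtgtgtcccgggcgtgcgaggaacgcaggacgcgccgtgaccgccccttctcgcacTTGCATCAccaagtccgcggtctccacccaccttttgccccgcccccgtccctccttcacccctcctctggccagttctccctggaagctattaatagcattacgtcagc
Ppp1r15a: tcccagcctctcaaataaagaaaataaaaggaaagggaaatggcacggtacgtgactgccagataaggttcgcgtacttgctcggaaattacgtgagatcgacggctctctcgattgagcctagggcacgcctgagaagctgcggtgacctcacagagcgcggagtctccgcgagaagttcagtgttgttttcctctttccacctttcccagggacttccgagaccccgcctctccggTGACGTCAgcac

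The 9 cultures were sequenced to between 25.2 M and 48.2 M reads on genes, and the 6 tumors to between 16.3 M and 20.7 M. The member with the fewest reads was Atf3, at 88 reads in 1 control library. With reads taken as independent, this was a counting error of 10.7% beside a spread of 18.6% of the mean between controls. For Ddit3 in controls, at 366 to 721 reads, the counting error at the fewest reads, on the same basis (5.23%), was about as large as the spread (5.40%). The epithelial genes Krt8, Krt18, Krt19, Krt7, Epcam and Cdh1 summed to 387215 to 496207 normalized counts in control cells, to 114949 to 123309 after DON and to 160170 to 175701 without Gln. Of the host lists, Cd3e, Lyz2, Col1a2, Dcn and the islet hormones were at 0 in all 9 cultures, but other listed genes were not. The macrophage and neutrophil list summed to 60.1 to 90.2 normalized counts in controls, 793 to 838 after DON and 31.3 to 54.9 without Gln. The fibroblast list summed to 471 to 630, 121 to 157 and 1076 to 1123, and the acinar list to 2.44 to 7.31, 222 to 412 and 8.36 to 30.4. The part of these lists in the members' values was not tested. In the tumors the host lists were present, with fibroblast genes at 18469 to 82817 normalized counts, so the tumor values are a mixture of cancer and host RNA. In such bulk samples, fewer cells of a type and less RNA per cell cannot be told apart.

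In control cells, the 10 members spanned a wide range of mRNA levels. Per length, as reads per kilobase of gene and M library reads (RPKM), Atf4 stood far above the others at 155 ± 7.94 (SD, n = 3), the 404th highest of 11503 genes. Next came Atf6b at 34.0 ± 0.599, Atf5 at 29.99 ± 3.92 and Atf1 at 27.4 ± 4.75, of which Atf5 and Atf1 overlapped. Atf2 (17.3 ± 3.39), Ddit3 (14.7 ± 0.794) and Atf6 (13.5 ± 0.628) formed a chain of overlapping neighbors. Ppp1r15a (6.86 ± 0.671) and Atf7 (6.21 ± 0.116) overlapped too, and Atf3, an early stress gene, was last at 1.92 ± 0.359. Before treatment, then, the mRNA of Atf4 was abundant. Among the other stress-responsive members, Atf5 was 3rd in level, Ddit3 6th, Ppp1r15a 8th and Atf3 last.

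The DON comparison asked which stress genes respond to Gln antagonism. All 10 members rose after DON, by limma on log2(value + 1) with Benjamini-Hochberg adjustment, where 68.1% of 13556 genes were called and 33.3% were called higher. Ddit3, which encodes CHOP, a factor tied to cell death under prolonged stress, held 11609, 13277 and 10524 normalized counts after DON and 488, 457 and 468 in controls. The groups lay far apart and the log2 fold change was 4.64 (SE 0.10, adjusted p = 1.96e-12), the 30th highest of all genes tested. Ppp1r15a held 7212, 6975 and 7074 normalized counts after DON and 650, 596 and 665 in controls. Its 3 DON libraries were close to each other, and the log2 fold change was 3.48 (SE 0.09, adjusted p = 2.74e-12). Atf3 held 1337, 1330 and 1174 normalized counts after DON against 123, 110 and 144 in controls. This was a log2 fold change of 3.34 (SE 0.14, adjusted p = 1.40e-10), although Atf3 stayed the lowest of the members in normalized counts. Atf5, a relative of Atf4 linked to mitochondrial stress, held 14180, 15908 and 14313 normalized counts after DON. The controls held 1981, 2006 and 1446, the log2 fold change being 3.04 (SE 0.12). Atf4 itself held 28393, 28024 and 27693 normalized counts after DON and 9575, 8621 and 8342 in controls, a log2 fold change of 1.67 (SE 0.09, adjusted p = 1.32e-09). The most abundant member thus had a smaller fold change than the 4 above, and its DON libraries were almost equal.

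The other 5 members moved less. Atf6 had 3237 ± 49.1 normalized counts in controls and 5521 ± 190 after DON (SD, n = 3), a log2 fold change of 0.77. Atf7, close in sequence to Atf2, had a log2 fold change of 0.73, with 1471 ± 95.2 normalized counts in controls and 2450 ± 219 after DON. For Atf6b, which resembles ATF6, it was 0.68, with 2890 ± 187 and 4623 ± 140 normalized counts. Atf1, a relative of CREB, held 2769, 3055 and 2741 normalized counts after DON against 2158, 1852 and 2401, a log2 fold change of 0.42 (SE 0.11, adjusted p = 0.00274). Atf2 was the weakest: it held 3030, 2758 and 2947 normalized counts after DON and 2155, 2249 and 2792 in controls. These groups overlapped, since the highest control lay above the lowest DON library, and the log2 fold change was 0.29 (SE 0.11, adjusted p = 0.0269). In 9 of the 10 members every DON library lay above every control, which was so for 35.3% of all genes tested. Atf2 was no longer called without DON library 1 (log2 fold change 0.26, adjusted p = 0.103), DON library 3 (0.28, 0.0734), control library 1 (0.22, 0.123) or control library 2 (0.25, 0.0900).

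**Figure D1:**
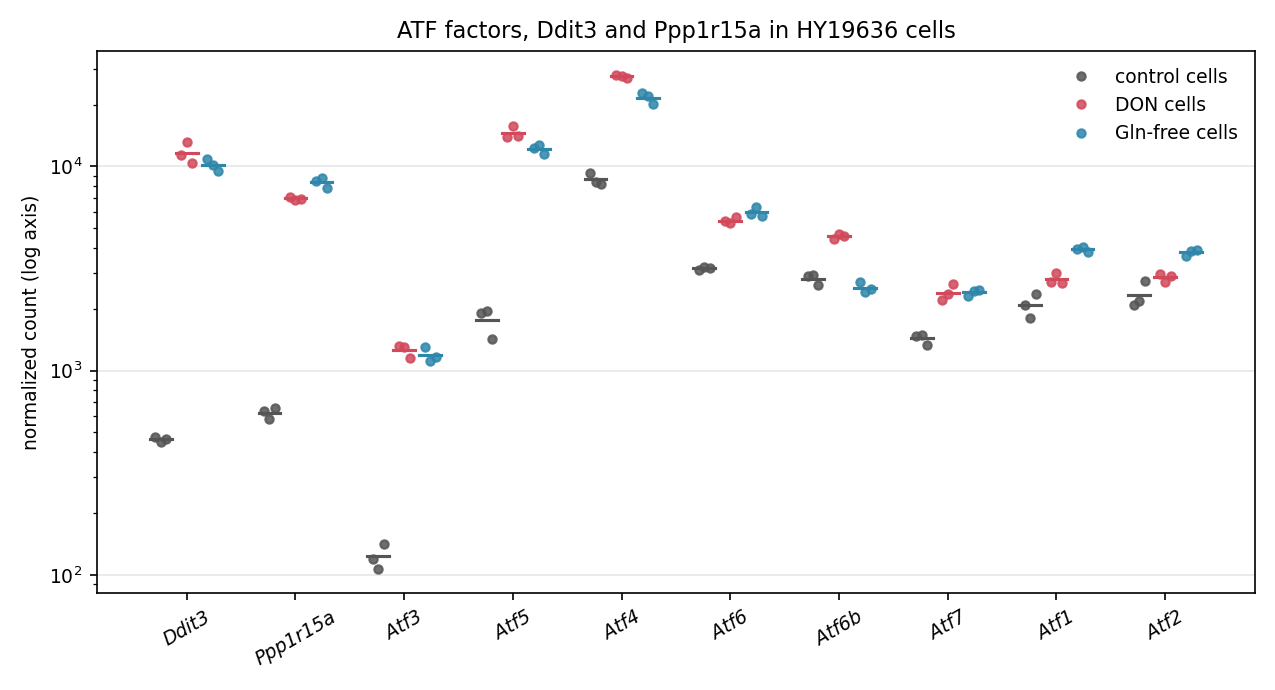
Normalized counts (log axis) of each member in the 9 culture libraries scaled together, with points for libraries and bars for means of 3. Ddit3, Ppp1r15a, Atf3 and Atf5 of both treated groups lie well above the controls, while Atf6b is above the controls after DON only.

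Removal of Gln asked the same of the absence of the amino acid itself, with the same 3 control libraries as the DON comparison. It raised 9 of the 10 members, where 69.4% of 13390 genes were called and 34.5% were called higher. Ddit3 held 10703, 10007 and 9366 normalized counts without Gln and 460, 432 and 452 in controls, which are scaled anew in this table. Its log2 fold change of 4.48 (SE 0.09, adjusted p = 7.42e-12) was the 11th highest of all genes tested. Ppp1r15a held 8387, 8704 and 7728 normalized counts against 613, 563 and 641, a log2 fold change of 3.77. For Atf3 the log2 fold change was 3.30, for Atf5 2.82 and for Atf4 1.35. The Gln-free libraries of these 3 genes all lay above the controls: Atf4, for instance, held 22591, 21750 and 19923 against 9024, 8143 and 8046 normalized counts. Atf1 and Atf6 had log2 fold changes of 0.94 each, Atf7 of 0.78 and Atf2 of 0.73, all with adjusted p of at most 4.72e-05. Atf6b stood apart from the rest. It held 2683, 2393 and 2478 normalized counts without Gln and 2815, 2842 and 2578 in controls, overlapping groups with a log2 fold change of -0.12 (95% confidence interval -0.31 to 0.06, adjusted p = 0.215). In 9 of 10 members the groups did not overlap with the Gln-free libraries higher, as in 36.4% of genes tested.

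**Figure D2:**
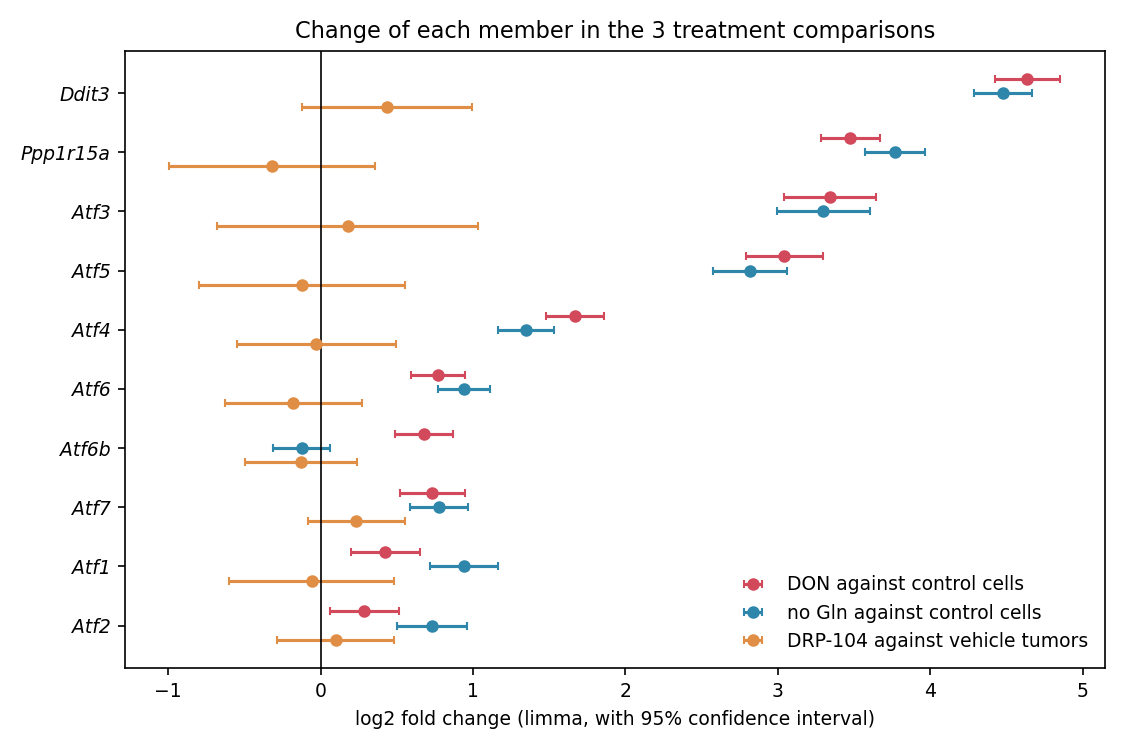
Log2 fold changes of the members with 95% confidence intervals (limma), for DON and no Gln against control cells and for DRP-104 against vehicle tumors. The 5 members at the top lie between 1.35 and 4.64 in both cell comparisons, and the intervals of the tumor comparison include 0 for all 10.

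DON and Gln-free cells were set against each other directly, on the reads of all 9 culture libraries scaled together. Of the 10 members, 6 differed, 3 higher and 3 lower after DON, where 63.3% of 13514 genes were called, 31% higher and 32.3% lower. Atf6b was farthest apart, with 4397, 4689 and 4553 normalized counts after DON and 2714, 2422 and 2508 without Gln, a log2 difference of 0.84 (SE 0.08, adjusted p = 1.89e-07). Atf4 was higher after DON by 0.35 on the log2 scale (adjusted p = 8.86e-04). Atf1 was lower after DON, with 2719, 3011 and 2694 normalized counts against 3921, 4039 and 3820, a log2 difference of -0.49 (adjusted p = 3.22e-04). Atf2 was lower by a log2 difference of -0.41 (adjusted p = 0.00152). So the 2 members with the smallest rises after DON were higher in cells without Gln. Ppp1r15a was lower after DON by a log2 difference of -0.26 (adjusted p = 0.00733), with 7081, 6875 and 6955 against 8483, 8809 and 7820 normalized counts. Atf5 was higher by 0.26 (adjusted p = 0.0444), a call lost without any 1 of the 6 treated libraries, with adjusted p of 0.0567 to 0.159. Ddit3 missed the threshold at a log2 difference of 0.19 (95% confidence interval 0.00 to 0.38, adjusted p = 0.0733), and was called without DON library 3 (0.27, adjusted p = 0.0233) and without control library 3 (0.19, adjusted p = 0.0426). Differences of Atf6 (-0.14), Atf3 (0.08) and Atf7 (-0.01) did not pass the test, with the interval of Atf7 running from -0.20 to 0.17.

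The make-up of the group changed with treatment. Summed per length, the 10 members reached 307 ± 10.9 RPKM in control cells, 1487 ± 61.5 after DON and 1286 ± 56.2 without Gln (SD, n = 3). Atf4 supplied 51.98%, 49.98% and 49.5% of this sum in the control libraries, and 37.2%, 34.8% and 37.6% after DON. Ddit3 supplied 4.71%, 4.72% and 4.94% in controls and 27.1%, 29.3% and 25.4% after DON. Atf4 therefore rose in level while its share was lower, and Ddit3 moved from the sixth to the second place in level. That order rests on the gene lengths of the authors' table: with GENCODE M21 lengths Ddit3 was below Atf5 after DON (20.8% against 22.5% of the sum), and so it was from reads not divided by length (14.5% against 18.2%). After DON the order was Atf4 (543 ± 3.66 RPKM), Ddit3 (406 ± 46.0), Atf5 (272 ± 17.2), Ppp1r15a (84.2 ± 1.38) and Atf6b (60.1 ± 1.94), none of which overlapped its neighbor. Atf2 (23.1 ± 1.12) and Atf3 (21.5 ± 1.42) overlapped lower in the list, and Atf7 was last at 11.4 ± 1.101. Without Gln the first 4 places were the same, with Atf4 at 33.0% ± 0.425, Ddit3 at 27.5% ± 0.645, Atf5 at 17.6% ± 0.530 and Ppp1r15a at 7.83% ± 0.239 of the sum. There too Atf5 was above Ddit3 with GENCODE M21 lengths (21.7% against 21.02%) and from undivided reads (16.8% against 14.04%). Shares were higher than in controls for Atf3, Atf5, Ddit3 and Ppp1r15a and lower for the other 6, in every library and in both treatments. Each of these had p = 0.1 in a two-sided exact permutation test, the smallest that 3 against 3 samples allow, so none can reach 0.05. In the tumors, Ddit3 was the one member whose share did not overlap, with 10.9%, 10.6% and 9.87% with DRP-104 and 7.60%, 7.74% and 7.92% with vehicle (exact p = 0.1). In the authors' FPKM the mean Ddit3 shares were closer, at 7.90% and 7.18%.

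**Figure D3:**
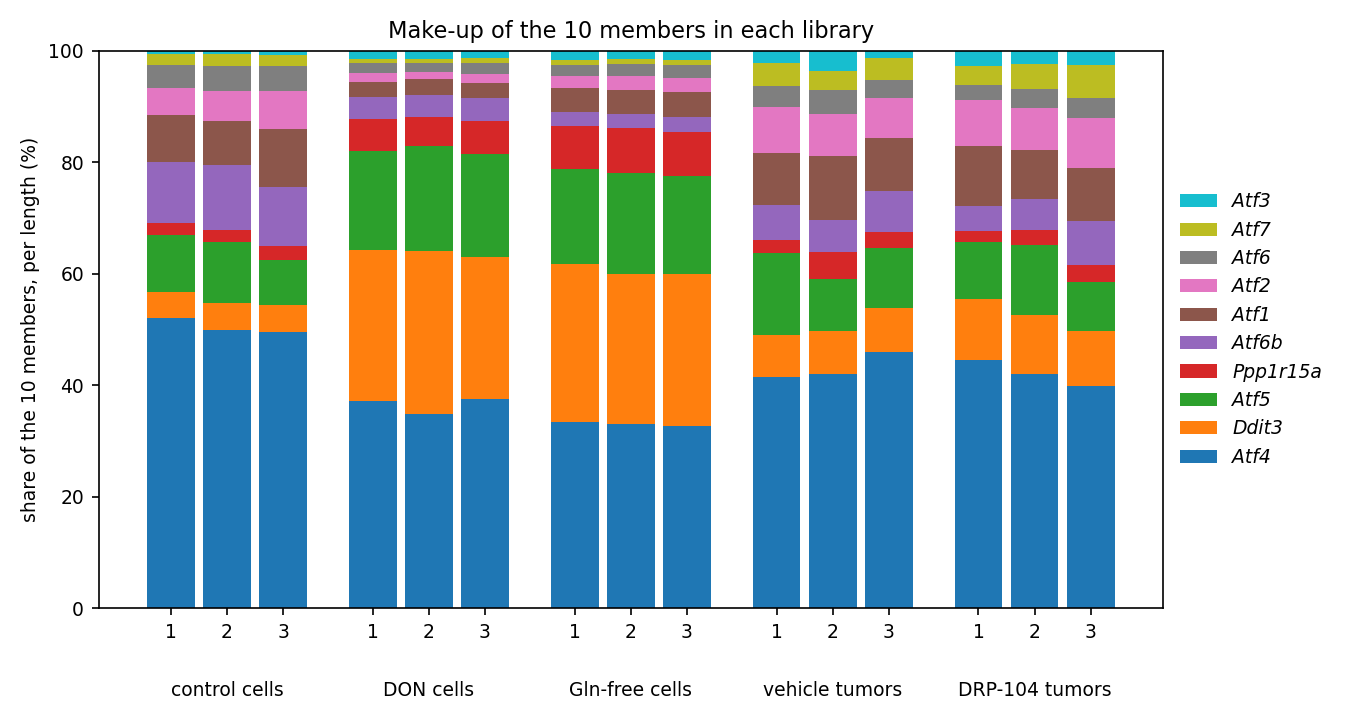
Share of each member in the length-divided reads of the 10 members, in percent, for each of the 15 libraries (bars 1 to 3 in each group). Ddit3 fills 25.4% to 29.3% of the bar in DON libraries and 4.71% to 4.94% in controls, and Atf4 fills on average 43.1% in vehicle and 42.1% in DRP-104 tumors.

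Ratios between members within a library need no scaling between tables. The Ddit3 level per length was 0.0950 ± 0.00464 of that of Atf4 in control cells, 0.749 ± 0.0854 after DON and 0.833 ± 0.0126 without Gln (SD, n = 3). The ratio of Atf5 to Atf4 was 0.194 ± 0.0283 in controls, 0.501 ± 0.0337 after DON and 0.534 ± 0.0209 without Gln. Ppp1r15a, the feedback arm, was at 0.466 ± 0.0210 of Ddit3 in controls, 0.209 ± 0.0257 after DON and 0.285 ± 0.0149 without Gln. Within the ER-anchored pair, the Atf6b to Atf6 ratio was 2.52 ± 0.152 in controls and 2.37 ± 0.128 after DON, 2 groups that overlapped, but 1.21 ± 0.116 without Gln, below every control and DON library. In the tumors the Ddit3 to Atf4 ratio was 0.183, 0.184 and 0.172 with vehicle and 0.246, 0.253 and 0.247 with DRP-104. These tumor groups did not overlap, and the two-sided exact permutation test gave p = 0.1, the smallest it can give here. In the authors' FPKM table the same ratio overlapped, at 0.161 to 0.209 with DRP-104 and 0.143 to 0.183 with vehicle (exact p = 0.5). The Ppp1r15a to Ddit3 ratio averaged 0.249 with DRP-104 and 0.431 with vehicle, also without overlap and with an exact p of 0.1. Its vehicle mean rested on tumor 2 (0.617) and was 0.338 without it, which left a difference of -0.0888 in place of -0.182, and in FPKM the groups overlapped at 0.330 to 0.462 and 0.345 to 0.513 (exact p = 0.8). Apart from those in FPKM and those with a library left out, 16 comparisons of ratios were computed.

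**Figure D4:**
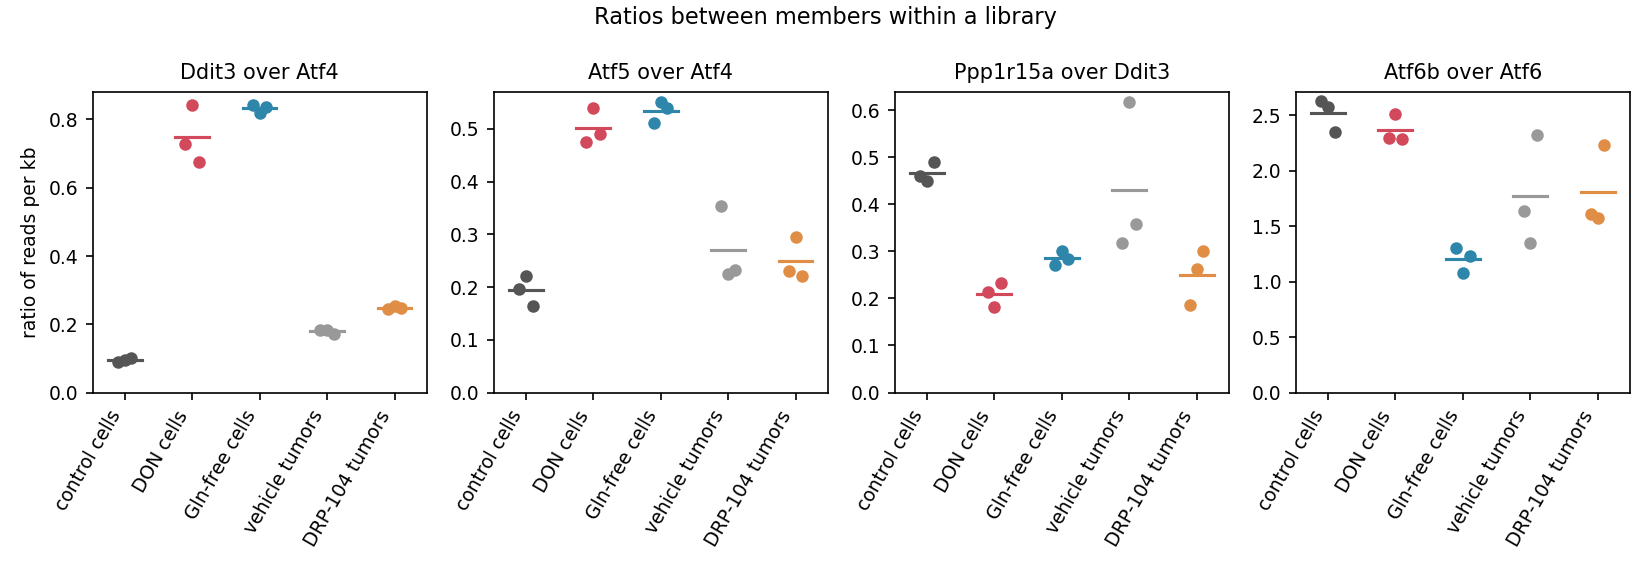
Ratios of length-divided reads between pairs of members in each of the 15 libraries, with bars for group means. The Ddit3 to Atf4 ratio is near 0.0950 in control cells, 0.749 and 0.833 in the treated cells and 0.180 and 0.249 in the tumor groups, and the Atf6b to Atf6 ratio is lowest in Gln-free cells.

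The tumor comparison asked whether DRP-104 changes the same genes in vivo. None of the 10 members was called, nor was any of 15454 genes (0%) by limma, with 775 genes at an unadjusted p under 0.05; DESeq2 on the recovered reads called 56 genes and none of the members. Ddit3 held 681, 623 and 376 normalized counts with DRP-104 and 374, 410 and 418 with vehicle. Tumors 1 and 2 lay above all vehicle tumors and tumor 3 among them, and the log2 fold change was 0.44 (95% confidence interval -0.12 to 1.00, adjusted p = 0.916). Without DRP-104 tumor 3 it was 0.70 (adjusted p = 0.804). Atf4 held 4927, 4387 and 2701 normalized counts with DRP-104 and 3624, 3957 and 4316 with vehicle, a log2 fold change of -0.03 (95% confidence interval -0.55 to 0.49). Ppp1r15a held 366, 473 and 327 normalized counts against 345, 733 and 433, with vehicle tumor 2 alone above the rest. Its log2 fold change was -0.32 (95% confidence interval -0.99 to 0.36), and -0.01 without vehicle tumor 2. Atf5 held 1197, 1366 and 628 normalized counts against 1352, 935 and 1052, and Atf3 held 342, 276 and 195 against 219, 388 and 149. In both genes the groups overlapped widely. Atf7 was the only member whose groups did not overlap, at 1573, 1938 and 1662 normalized counts with DRP-104 and 1474, 1379 and 1531 with vehicle. Its log2 fold change was 0.23 (95% confidence interval -0.09 to 0.55, adjusted p = 0.916). Of all genes tested, 10.6% had groups that did not overlap in either direction, and 4.83% lay wholly higher with DRP-104. The single member is near that share. The log2 fold changes of Atf1 (-0.06), Atf2 (0.10), Atf6 (-0.18) and Atf6b (-0.13) had intervals that included 0.

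DRP-104 tumor 3 held the lowest normalized count of 6 members (Atf1, Atf2, Atf4, Atf5, Atf6 and Ppp1r15a), while 26.3% of all genes tested were lowest in this tumor. The same tumor held the highest value of all 7 T cell genes, their sum being 1306 normalized counts against 41.5 to 98.3 in the other 5 tumors. It also held the lowest value of 6 of 7 fibroblast genes, whose sum was 18469 to 32268 normalized counts in DRP-104 tumors and 39031 to 82817 in vehicle tumors. The authors' FPKM did not show these differences. There the fibroblast sums were 1001 to 2958 with DRP-104 and 740 to 1215 with vehicle. The T cell sums were 1.48 to 4.59 FPKM with DRP-104 and 2.90 to 4.23 with vehicle. The part of these host genes in the members' values was not tested.

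The authors' FPKM table holds 3 columns for each tumor group, not matched here to the tumors above. Deviations of single tumors and single columns from their group mean correlated at -0.21 to 0.28 with DRP-104 and at -0.55 to 0.55 with vehicle. No column could be matched to a tumor by these correlations. FPKM is therefore not taken as a second processing of the same tumors, and differences in tumors and in processing cannot be told apart. The FPKM columns too gave 0 called members and 0 called genes of 14199 (0%) by limma, with 1080 at an unadjusted p under 0.05. Ddit3 had 22.9, 21.5 and 27.3 FPKM with DRP-104 and 19.98, 15.7 and 24.1 with vehicle, and Atf4 had 130 ± 3.57 and 119 ± 11.4 FPKM (SD, n = 3). Atf5 had 47.5, 37.6 and 32.1 FPKM against 27.7, 22.1 and 28.1, groups that did not overlap, with a log2 fold change of 0.56 (adjusted p = 0.601). In the normalized counts the Atf5 difference was -0.12, not called either. The sign differed between the tables for 7 of the 10 members (Atf2, Atf4, Atf5, Atf6, Atf6b, Atf7 and Ppp1r15a), none of them called. For Atf7, which did not overlap in normalized counts, the FPKM groups overlapped and the log2 fold change was -0.19 (exact p = 1). Atf6b (40.3, 22.9 and 22.7 against 21.8, 21.7 and 20.4 FPKM) also lay wholly higher with DRP-104, as did 9.62% of genes tested. Atf1 (14.8, 27.8 and 27.3 against 28.5, 28.1 and 29.5 FPKM) and Atf2 (10.4, 21.5 and 21.7 against 22.3, 21.8 and 23.1 FPKM) lay wholly lower, as did 9.65%. In these 3 genes 1 DRP-104 column stood far from the other two. Without that column the log2 fold changes were 0.09 for Atf6b, -0.06 for Atf1, -0.05 for Atf2 and 0.42 for Atf5, and it held the lowest or highest value in 39.8% and 33.7% of all genes.

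**Figure D5:**
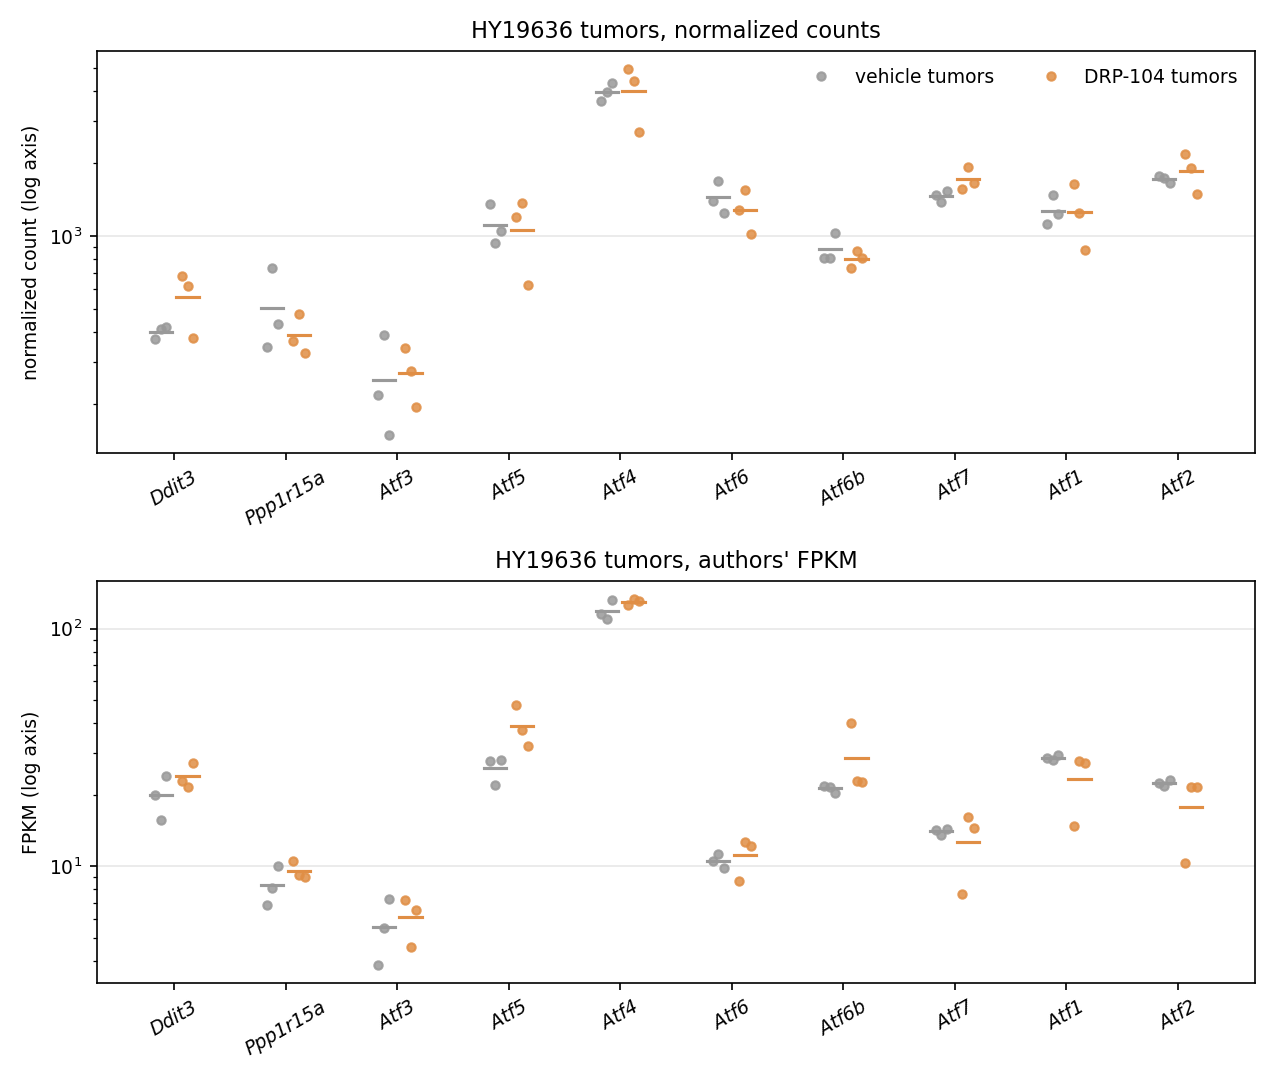
Each member in the 3 vehicle and 3 DRP-104 tumors, as normalized counts (top) and in the 6 columns of the authors' FPKM table (bottom), both on log axes, with points for samples and bars for means. The tumor groups overlap in all members but Atf7 at the top, and 1 DRP-104 column stands apart in Atf1, Atf2, Atf6b and Atf7 at the bottom.

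The effect of DRP-104 in tumors was then compared with that of DON in cells, as an interaction over the 12 libraries with each treatment set against its own controls. It was smaller in tumors for 8 of the 10 members, where 33.1% of 15070 genes were called and 14% were called lower. The differences were -4.20 for Ddit3 (SE 0.26, adjusted p = 5.27e-07), -3.79 for Ppp1r15a, -3.17 for Atf5, -3.16 for Atf3 and -1.69 for Atf4 on the log2 scale. They were -0.95 for Atf6, -0.81 for Atf6b and -0.50 for Atf7 (adjusted p = 0.0305), the last of which lost its call without DON library 2 or 3, control library 1 or 3, DRP-104 tumor 1 or vehicle tumor 1 or 3 (adjusted p from 0.0510 to 0.0903). Atf1 (-0.48, adjusted p = 0.190) and Atf2 (-0.19, adjusted p = 0.504) did not pass the test, and Atf1 was called without DRP-104 tumor 1 (-0.70, adjusted p = 0.0309). Drug, dose, time and setting differ between the 2 arms and cannot be told apart.

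Vehicle tumors and control cells were set side by side without a test, in RPKM. Atf4 led in both, at 123 ± 8.21 in vehicle tumors (SD, n = 3), followed there by Atf5 (33.0 ± 7.56), Atf1 (28.7 ± 3.31), Ddit3 (22.1 ± 0.672) and Atf2 (21.9 ± 1.35). Atf5 overlapped Atf1, Ddit3 overlapped Atf2, and Atf2 overlapped Atf6b. Atf3 was again last, at 6.76 ± 3.15, but 3.51 times its level in control cells. Atf7 was at 1.76 times and Ddit3 at 1.502 times the control cell level, without overlap, whereas 43.4% of 14637 genes lay wholly higher in tumors. Atf4, Atf6 and Atf6b lay wholly lower in vehicle tumors, with Atf6b at 18.4 ± 2.42 against 34.0 ± 0.599, as did 21.8% of genes. The sum over the members was 285 ± 2.70 in vehicle tumors and 287 ± 61.4 in DRP-104 tumors, near the 307 ± 10.9 of control cells. Ddit3 in DON cells was 18.4 times, Ppp1r15a 8.84 times and Atf5 8.26 times the level in vehicle tumors.

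Genes around the ATF factors were described by 4 lists from general knowledge. Of 18 genes for the eIF2 kinases, eIF2 and its phosphatase, 6 rose and 5 fell after DON, with a median log2 fold change of 0.04 against 0.02 over all genes, of which 33.3% rose and 34.7% fell. Eif2ak4, the kinase GCN2 that senses uncharged tRNA, had 1232 ± 30.9 normalized counts in controls and 433 ± 43.9 after DON, and it fell by 1.51 on the log2 scale after DON and by 1.09 without Gln. Impact, an inhibitor of that kinase, rose by a log2 fold change of 1.89 after DON and 1.32 without Gln. Eif2b3, a subunit of the exchange factor of eIF2, rose by 1.48 and 1.23. The kinases Eif2ak1 and Eif2ak2 fell after DON, and Eif2ak3, the ER kinase PERK, had a log2 fold change of -0.10 that did not pass the test. Without Gln, 8 of this list rose and 5 fell, as did 34.5% and 34.9% of all genes. Of the 28 other bZIP factors tested, 10 rose and 12 fell after DON, whereas 17 rose and 2 fell without Gln. Set against cells without Gln, 16 were lower and 5 higher after DON, where 32.3% of all genes were called lower and 31% higher. Jdp2, a repressor that binds cAMP response elements, rose from 754 ± 61.2 to 3481 ± 288 normalized counts after DON (log2 fold change 2.20) and by 0.76 without Gln. Nfil3 rose by 1.67 and 0.64, while Maf fell by 1.97 on the log2 scale after DON and rose by 0.94 without Gln.

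Known targets of ATF4 or CHOP moved with the members in cells. Of 31 tested, 28 rose and 2 fell after DON, with a median log2 fold change of 1.24, where 33.3% of all genes rose and 34.7% fell. Without Gln 25 rose and 4 fell, with a median of 0.85 against 0.01 over all genes, of which 34.5% rose and 34.9% fell. Trib3, a pseudokinase that feeds back on ATF4, rose from 1118 ± 152 to 14175 ± 463 normalized counts after DON (log2 fold change 3.67) and by 3.09 without Gln. Cth, an enzyme of cysteine synthesis, rose by 3.05 after DON and 1.63 without Gln. Car6, a carbonic anhydrase with a CHOP-dependent form, rose by 5.16 after DON, with 10.9 ± 7.96 normalized counts in controls and 369.6 ± 34.5 after DON. The 2 that fell after DON were Ddit4 (-2.01), an inhibitor of mTORC1 signaling, and Tnfrsf10b (-1.14), a death receptor; both were named after their values were seen. Set against cells without Gln, DON gave higher values in 21 of the 31 and a lower one in 1, where 31% of all genes were called higher and 32.3% lower. Of 17 targets and proteases of ATF6, 12 rose and 1 fell after DON, and 16 rose and 1 fell without Gln, beside the same shares of all genes. Dnajb9, an ER chaperone partner, rose by a log2 fold change of 2.42 after DON and 2.85 without Gln, Sdf2l1 by 1.55 and 1.66, and Herpud1 by 1.30 and 0.81. In contrast to the ATF4 list, DON gave lower values than the absence of Gln in 10 of these 17 and higher ones in 2. No gene of the 4 lists was called in the tumors: of the genes named here, Trib3 had a log2 fold change of 0.37 (adjusted p = 0.931), Dnajb9 of 0.19 and Eif2ak4 of 0.07, and the list medians were -0.05, -0.00, 0.12 and 0.01.

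Finally, the genes nearest to 3 members in their log2 changes over the 9 culture libraries were sought among 10421 others with a mean of at least 100 normalized counts. Likeness was the root mean square difference of log2 change from the control mean. Closest to Ddit3 were Snhg1 (0.29), Snhg12 (0.53) and Car6 (0.64), the first 2 of which are noncoding hosts of small nucleolar RNAs. Closest to Ppp1r15a were Zfas1 (0.12), Adamts6 (0.22) and Snhg16 (0.28), of which Zfas1 and Snhg16 are also such noncoding hosts. Zfas1 changed by 3.58 after DON and 3.65 without Gln, as against 3.48 and 3.75 for Ppp1r15a. Closest to Atf4 were Gtpbp2 (0.11), Tmem230 (0.11) and Ahi1 (0.12). Ddit3 lay farther from its nearest gene than the other 2 members did, but fewer genes changed as much. By log2 fold change after DON, Ddit3 ranked 30th, Ppp1r15a 97th and Atf4 700th, and the distances were not adjusted for this.

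Some members share genome sequence with neighbors, and whether the authors' counting used strand is not given in the sources used here. In GRCm38 coordinates of the authors' table, Ddit3 (ENSMUSG00000025408) spans chr10:127290774-127296288 and overlaps 68 bases at the end of Mars1 and 15 bases of Gm4189, both on the other strand. Mars1 had 4739 normalized counts in controls, against 471 for Ddit3, and 6771 after DON, so its own rise of 0.53 on the log2 scale was far below that of Ddit3. Gm4189 rose without Gln by 3.39 on the log2 scale (adjusted p = 0.00109), but held at most 41.3 normalized counts in any library. Atf5 (chr7:44812257-44816658) overlaps Nup62 on the other strand, which did not pass the test in either cell comparison (log2 fold changes -0.03 and 0.17), and Il4i1, which held at most 5.36 normalized counts. Ppp1r15a (chr7:45522916-45526268) overlaps 717 bases of Tulp2, which held at most 34.1 normalized counts in any culture library. Atf7 (chr15:102525946-102625464) lies over the same-strand model Gm28047, which was at 0 in every library. Atf3 spans chr1:191170296-191183340, Atf4 chr15:80255184-80257540, Atf6 chr1:170704674-170867771, Atf6b chr17:34647146-34655074, Atf1 chr15:100227819-100261244 and Atf2 chr2:73816509-73892639, with no overlapping gene in that table.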

How the data were processed

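Bulk RNA-seq of 15 samples in 5 groups of 3 was analyzed. According to the methods, reads were mapped by Novogene for the authors with HISAT2, and DESeq2 was applied; the labels also name STAR 2.5, CASAVA and GRCm39, whereas gene coordinates in the authors' table match GRCm38. The counting tool and the use of strand are not given in the sources used here.

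The signal that the authors deposited for each of the 3 comparisons is a gene count divided by 1 size factor per library, here called the normalized count. The deposited FPKM table (scaled for gene length and depth by the authors) holds tumors only and is not matched to the tumors of the counts. In the culture tables the control columns carry a vehicle name, and they were taken as the control group with no pairing. Further tables, which repeat these values or hold group means of FPKM, and columns with the authors' own fold changes and p-values were not used. Dividing by the worth of 1 read gave whole reads (tolerance 0.0051) for at least 99.9946% of values in each library, and the 3 control libraries gave identical reads in both culture tables at all 55291 genes. Among genes with 1 to 20 reads, 69.6% to 72.7% of counts in culture libraries and 41.9% to 46.5% in tumor libraries were even. The cause was not tested, and counting errors in the cultures, which take reads as independent, may therefore be too small.

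The values were tested with limma 3.58.1 in R 4.3.3 (trend, log2(value + 1), mean of at least 10, Benjamini-Hochberg over all genes tested, threshold 0.05), with only the libraries of each comparison. The comparison of DON with no Gln used recovered reads of 9 libraries scaled by median-of-ratios, and the interaction used 12 libraries. Levels (RPKM) were recovered reads per kilobase, by gene length in the authors' table, and M library reads. Single values were tested by two-sided exact permutation in scipy 1.17.1. As alternatives, the recovered reads were tested by edgeR 4.0.16, which called 9229, 9253 and 0 genes for DON, no Gln and DRP-104, and by DESeq2 1.42.0. Filters, pseudocounts, thresholds and scalings were also varied, as were a replicate block and the libraries, each left out in turn. The FPKM table was tested too, with columns not matched to the tumors of the counts. Shares with gene lengths from GENCODE M21, and tumor ratios in FPKM or without each library, were added after seeing the data. Intervals are built from the spread between libraries; reads without molecular identifiers are not independent molecules. The fits were run on simulated counts with known changes. Their direction had to be recovered for most changed genes in every comparison but the interaction, which was not held to this.

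The members, the lists and the rule for named genes were chosen with earlier results of these data known. The rule named all members, the 3 genes of each list with the largest absolute change after DON among those called without overlap, and the 3 nearest genes to Ddit3, Ppp1r15a and Atf4. Part of the line's genotype is not reported here.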

Additional observations from a re-analysis of the deposited data

Results flagged for a closer look

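The treatment effects in tumors and in cells differed by the interaction test (limma, adjusted p from 5.27e-07 to 0.0305) in 8 members, each smaller in the tumors. Of all genes tested, 33.1% were called and 14% were called lower. The difference, DRP-104 against vehicle minus DON against control on the log2 scale, was -3.16 for Atf3, -1.69 for Atf4, -3.17 for Atf5, -0.95 for Atf6, -0.81 for Atf6b, -0.50 for Atf7, -4.20 for Ddit3 and -3.79 for Ppp1r15a. Each of these members was higher in 3 of 3 DON libraries than in any control, as were 35.3% of all genes tested. Their tumor groups overlapped in all but Atf7, while 10.6% of all genes tested did not overlap in the tumors.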

How the results depend on the processing

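The number of members called moved little with the processing, except for DON against no Gln. With each library left out in turn, it was 9 to 10 for DON, 9 for no Gln and 0 for DRP-104. For DON against no Gln it was 5 to 8, and for the interaction 7 to 8. The counts over all genes were, in this order, 8344 to 9660, 8460 to 9683, 0, 7773 to 9104 and 4016 to 5403. No member changed direction while called. Over all members, settings that lost a call numbered 5 for DON (Atf2 each time), 8 for DON against no Gln (Atf5) and 9 for the interaction (Atf7), and settings that gained one numbered 6 for DON against no Gln (Ddit3 and Atf6) and 1 for the interaction (Atf1). Ddit3 was called above no Gln by edgeR (adjusted p = 0.0396) and after quantile normalization (0.0184).

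DESeq2 called 56 genes in the tumors where limma called 0, and an adjusted p under 0.01 left 3007 genes in the interaction; the cause of the first was not tested, and the second follows from the stricter threshold. Scaling by total reads or by quantiles moved the median log2 change of all genes after DON from 0.02 to 0.17 or 0.13, with 5445 or 5321 higher and 4040 or 4183 lower, against 4520 and 4706. For no Gln, total reads moved it from 0.01 to 0.11, with 5174 higher and 4163 lower, and for the interaction from -0.02 to -0.17, with 2354 higher and 2873 lower, or to -0.13 by quantiles, with 2054 each. Atf2, the weakest member after DON, had a log2 fold change of 0.43 by total reads.

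Shares depend on gene length by construction. From reads not divided by length, the Atf4 share was 36.8% in control, 34.5% in DON and 29.99% in Gln-free cells, 30.5% in vehicle and 29.9% in DRP-104 tumors, and that of Ddit3 was 1.96%, 14.5%, 14.04%, 3.08% and 4.18%. With GENCODE M21 lengths, added after seeing the data, the Ddit3 share was 3.56%, 20.8%, 21.02%, 5.84% and 8.02%, and the Atf4 share in control cells 48.5%. From FPKM the Ddit3 share was 7.18% in vehicle and 7.90% in DRP-104 tumors.

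No paired analysis was possible because the control columns of the culture tables carry no number tied to their labels, for comparisons with control cells. With a replicate block, the tumors gave 0 members and 0 genes (557 at an unadjusted p under 0.05), and DON against no Gln gave 7 members and 9237 genes, Ddit3 being gained (adjusted p = 0.0171). Same-numbered samples deviated together with correlations of -0.30, 0.01 and -0.38 in the tumors and -0.02, -0.01 and 0.11 in the cells, so the numbers were not taken as pairs. Counting error, with reads taken as independent, was about as large as the spread for Ddit3 in control cells, and with 3 samples a group the tumor intervals stayed wide.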
